A study of Mus musculus with 8 samples.

Results

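The visual cycle returns the light-absorbing form of vitamin A to the photoreceptors. Light converts the cis retinal bound to the opsins into all-trans retinal, which photoreceptors clear from their discs and reduce to retinol. Retinol crosses the space between the retina and the retinal pigment epithelium, is esterified and isomerised there, is oxidised back to cis retinal and returns, while Müller glia carry part of a second route that serves cones. The 9 genes of this pathway described here are Rpe65 (the isomerase), Lrat (the acyltransferase that esterifies retinol), Rdh5 (a dehydrogenase that oxidises cis retinol), Stra6 (the membrane receptor that takes up retinol from the blood), Rlbp1 (the cis retinal binding protein of Müller glia and pigment epithelium), Rdh8 and Rdh12 (photoreceptor enzymes that reduce all-trans retinal), Rbp3 (the retinoid-binding protein of the space between the tissues, made by photoreceptors) and Abca4 (the flippase that clears retinal from photoreceptor discs). They were chosen by name, and 9 of 9 were found among the 17500 genes of the deposited table. The first 4 belong to the pigment epithelium and are set against the other 5, which belong to photoreceptors and Müller glia. Mutation of several of these genes causes inherited retinal disease.

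Poly(A)-selected RNA of the whole retina was sequenced from 4 control and 4 Rbfox2-/- mice, 1 library per mouse. The controls were M833, M894, M896 and M898. The mutants were M893, M901, M902 and M909, and values by mouse follow these orders throughout. All mice were 6 months old on a C57BL/6J background. The Rbfox2-/- mice, which the sample labels call Rbfox2 KD, were Rbfox2 fl/fl animals in which tamoxifen activated a Cre recombinase. The Cre was not specific to a cell type, and the study chose it for its activity in ganglion and amacrine cells. Age-matched heterozygous Rbfox2 fl/+ mice were the controls, so that both groups carried a floxed allele. By the labels every mouse, controls included, had 4 months of tamoxifen. The study's methods instead describe a course of a few days, of tamoxifen or vehicle, with retinas taken 4 months later, and do not say which the controls received. Whether the controls carried Cre is not given either, so loss of Rbfox2, Cre and tamoxifen cannot be told apart. In whole retina, fewer cells of a type and less RNA per cell cannot be told apart.

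The libraries held 160630226 to 211283591 counts on genes, and 3 counts corresponded to 0.0144 to 0.0189 CPM (counts per 1000000 of the TMM-normalized library total). Rbfox2, the targeted gene and a splicing regulator, lay at 144 to 157 CPM in controls and at 53.6 to 59.4 CPM in Rbfox2-/- retinas, a difference of -1.41 on the log2 scale (standard error 0.05) with an adjusted p of 5.5e-07 by edgeR's quasi-likelihood test. Of 16797 genes tested, 11 (0.0655%) had an adjusted p under 0.05, 6 of them higher in Rbfox2-/- retinas. M901 and M902 stood apart, with 277506 and 275967 counts of Xist, the RNA of the inactive X chromosome, against 312 to 426 in the other 6 libraries. Both are Rbfox2-/- mice and no control had high Xist, so this difference between mice is partly confounded with the group. The labels give no sex. M909 and the control M894 stood apart in the pigment epithelium genes, as given below.

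The table gives levels per transcript length as FPKM (fragments scaled to gene length and library total), on which the genes can be ordered. By its median over the 8 libraries, Rbp3 was highest at 1567 FPKM (1447 to 1637). Abca4 followed at 281 FPKM, Rlbp1 at 214, Rdh12 at 168 and Rdh8 at 70.2. The ranges of these 5 genes over the 8 libraries did not overlap one another. The pigment epithelium genes came after a gap of 9.55 times between the medians of Rdh8 and Rdh5. Rdh5 had a median of 7.35 FPKM (5.95 to 13.2), Rpe65 of 6.08 (4 to 11) and Stra6 of 4.55 (3.79 to 7), and neighbours among these 3 overlapped in range. Lrat was lowest at 1.26 FPKM (0.791 to 2.29), below every library's Stra6. The 9 genes took 1.05% to 1.17% of all counts in a library, most of it from Rbp3 (0.763% to 0.864%), and the 4 pigment epithelium genes took 0.00327% to 0.00683%.

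**Figure D1:**
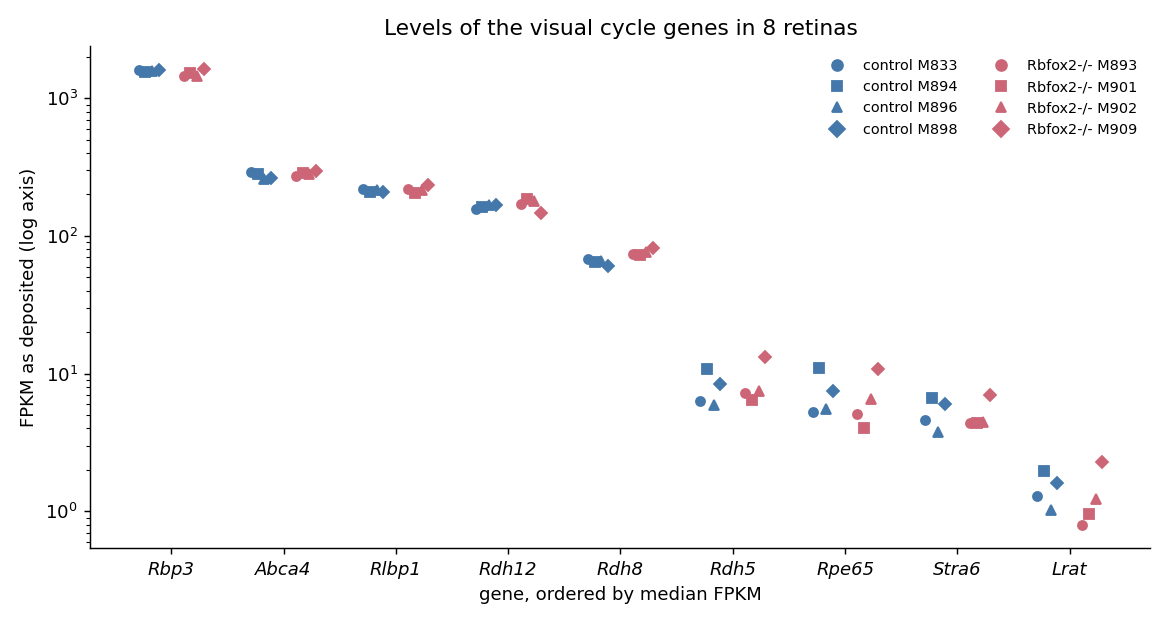
FPKM as deposited (log axis) of each gene in each of the 8 retinas, genes ordered by median; blue marks are control mice, red marks Rbfox2-/- mice. Rbp3 lies at 1447 to 1637 FPKM in every library and the 4 pigment epithelium genes lie at 13.2 FPKM or less, with a wider spread between mice.

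Short words known from photoreceptor and pigment epithelium promoters were searched before the 9 genes. The core word bound by the photoreceptor factor CRX and its relative OTX2 of the pigment epithelium, TAATCC, was searched on both strands in the 250 bases before each RefSeq start (GRCm38.p6), where all 9 genes had a window. It occurred before Rpe65, Abca4 and Rbp3, that is in 3 of the 12 windows of the 9 genes, and in 2054 of all 32851 windows (6.25%). In each it lay on the minus strand close to the start, 42 to 37 bases before it in Rpe65, 58 to 53 in Abca4 and 69 to 64 in Rbp3. The 150 bases before each start are printed 5′ to 3′ because they show this word in a pigment epithelium gene and in 2 photoreceptor genes, with the minus-strand word read on the gene's strand as GGATTA in capitals. The stretches are chr3:159599031-159599180 for Rpe65, chr14:33953853-33954002 for Rbp3 and chr3:122044310-122044459 for Abca4, all on the plus strand. The last bases of the Rpe65 and Abca4 stretches lie past the start of the gene in GENCODE.
Rpe65: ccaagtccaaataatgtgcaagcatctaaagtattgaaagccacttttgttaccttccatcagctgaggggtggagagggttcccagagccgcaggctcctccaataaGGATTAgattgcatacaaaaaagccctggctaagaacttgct
Rbp3: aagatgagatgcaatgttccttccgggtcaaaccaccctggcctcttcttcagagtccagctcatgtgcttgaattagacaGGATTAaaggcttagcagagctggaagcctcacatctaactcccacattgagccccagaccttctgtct
Abca4: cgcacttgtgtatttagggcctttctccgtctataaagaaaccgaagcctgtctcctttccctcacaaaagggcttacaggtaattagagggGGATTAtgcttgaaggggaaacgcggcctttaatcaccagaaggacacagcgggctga

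Of the other words searched the same way, CATGTG (the M-box core) occurred before Rpe65, Rbp3 and Rlbp1 and in 12.3% of all windows. TGCTGA (a half-site of the rod factor NRL) occurred before Rbp3, Rdh12, Rlbp1 and Stra6 and in 16.1% of all windows. CACGTG (the E-box) occurred before 0 of the 9 genes and in 6.02% of all windows. No 2 of these words overlap in the 9 genes, and a match is a description of the sequence and not of binding.

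None of the 9 genes passed an adjusted p under 0.05 between Rbfox2-/- and control retinas, and 1 of 9, Rdh8, had an unadjusted p under 0.05, against 13.3% of all genes tested (2233 genes). The count of the 9 past the adjusted threshold was 0 also without M901 and M902 and without any single library. With DESeq2 and with edgeR's likelihood ratio test it was 1, again Rdh8, where these tests called 2.74% and 0.976% of all genes. The estimates of the 2 kinds of gene differed in precision. The standard error of the log2 fold change was 0.20 to 0.32 for the pigment epithelium genes and 0.05 to 0.07 for the other 5.

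**Figure D2:**
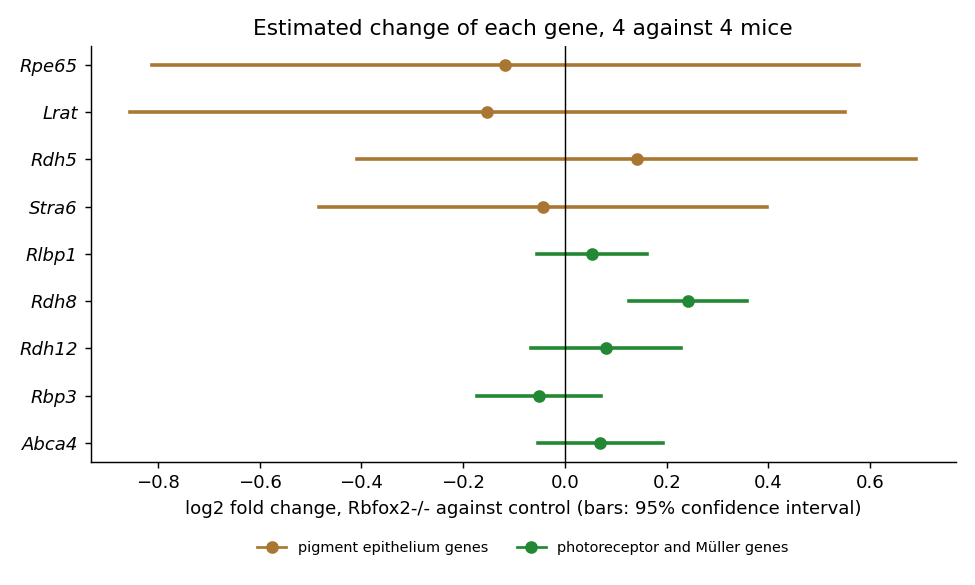
Log2 fold change of each gene in Rbfox2-/- against control retinas (point) with its 95% confidence interval (bar), from edgeR's quasi-likelihood fit of 4 against 4 mice. The intervals of Rpe65 (-0.81 to 0.58) and of the other pigment epithelium genes are wider than those of the photoreceptor and Müller genes, and only the interval of Rdh8 (0.13 to 0.36) lies wholly above 0.

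Among the pigment epithelium genes, Rpe65 (chr3:159599175-159625321, plus strand, GRCm38), the isomerase, had 9.85, 20.01, 10.14 and 13.47 CPM in controls. It had 9.35, 7.45, 12.31 and 20.14 CPM in Rbfox2-/- mice. The highest retina of each group, M894 and M909, reached nearly the same level and the groups overlapped. Its log2 fold change of -0.12 had a standard error of 0.31 and an adjusted p of 0.906, and the interval, 0.569 to 1.49 times the control level, spans changes in both directions.

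Lrat (chr3:82892579-82903973, minus strand), which makes the retinyl esters that RPE65 consumes, had 7.03, 10.45, 5.45 and 8.50 CPM in controls. It had 4.20, 5.14, 6.61 and 12.31 CPM in Rbfox2-/- mice. Its lowest values were those of M893 and M901 and its highest that of M909, so that the control range lay inside the Rbfox2-/- range. Lrat thus differed by -0.15 on the log2 scale, with a standard error of 0.32 and an adjusted p of 0.875.

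Rdh5 (chr10:128913593-128922888, minus strand), which oxidises the cis retinol that RPE65 produces, had 8.11, 13.51, 7.42 and 10.50 CPM in controls. It had 9.03, 8.23, 9.55 and 16.76 CPM in Rbfox2-/- mice. All 3 Rbfox2-/- mice other than M909 lay inside the control range. The estimate was 0.14 on the log2 scale, with a standard error of 0.25 and an adjusted p of 0.846. In GENCODE the exons of Rdh5 share 720 of 2809 bases (25.6%) with those of Bloc1s1, which lies on the same strand. Whether this affected the deposited counts of these 2 genes was not tested.

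Stra6 (chr9:58063788-58153996, plus strand), the retinol receptor, had 13.02, 18.23, 10.38 and 16.47 CPM in controls. It had 12.06, 12.30, 12.52 and 19.51 CPM in Rbfox2-/- mice. In the latter group 3 mice lay close together and M909 lay far above them. On the log2 scale the groups differed by -0.04, with a standard error of 0.20 and an adjusted p of 0.950.

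The pigment epithelium genes varied together from mouse to mouse. Each was highest in M909 and next highest in the control M894. Their within-group standard deviations on the log2 scale were 0.34 to 0.53, at or above the 97th percentile of all genes tested (median 0.09), against 0.07 to 0.11 for the other 5 genes. The highest library exceeded the lowest 1.88-fold for Stra6 and 2.93-fold for Lrat, but 1.15-fold for Rbp3 and 1.37-fold for Rdh8. The ratio of Rdh5 to Stra6 on the FPKM scale was the steadiest within the pigment epithelium genes, at 1.37 to 1.89. The ratio of Lrat to Rdh5 was 0.173 to 0.204 in controls and 0.11 to 0.173 in Rbfox2-/- mice, and was given no test. This ratio was not named beforehand, and it is the only one among these genes whose group ranges do no more than touch. The others overlapped, as for Rpe65 to Lrat at 4.06 to 5.56 in controls and 4.21 to 6.46 in Rbfox2-/- mice.

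**Figure D3:**
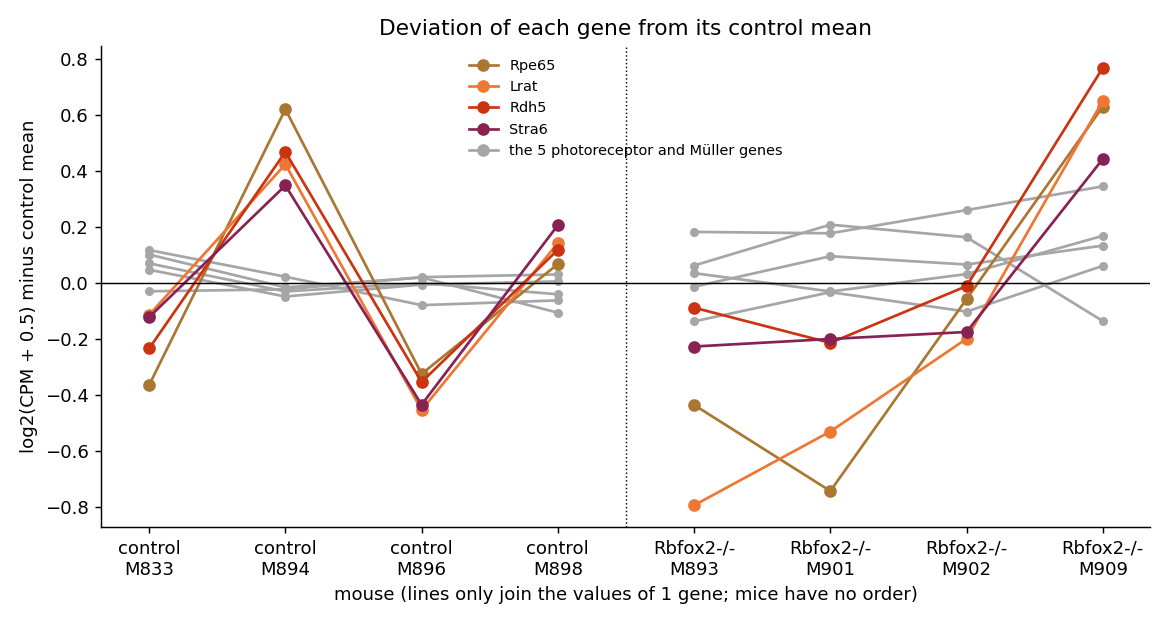
Deviation of each gene in each mouse from its control mean, as log2(CPM + 0.5) (y axis), for the 4 pigment epithelium genes (coloured) and the 5 photoreceptor and Müller genes (grey). All 4 pigment epithelium genes are high in the control M894 and in the Rbfox2-/- mouse M909, where Rdh5 reaches 0.77, while the grey genes stay between -0.14 and 0.35 in every mouse.

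The mean log2 level of the pigment epithelium genes was set against that of the other 5 within each library, which removes any scaling of the library. The difference was -6.26, -5.51, -6.37 and -5.82 in controls and -6.40, -6.50, -6.19 and -5.48 in Rbfox2-/- mice. The mean was -5.99 ± 0.40 in controls (SD, n = 4) and -6.14 ± 0.46 in Rbfox2-/- mice (SD, n = 4). The group means differed by -0.15 on the log2 scale, less than the SD within either group. Without the control M894 this difference was 0.01, and without M901 and M902 it was 0.05.

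The direction of the pigment epithelium genes between the groups depended on which mice were included. Without M909 the log2 fold change was -0.46 for Rpe65, -0.56 for Lrat, -0.15 for Rdh5 and -0.24 for Stra6. Without M901 and M902 it was 0.14, 0.07, 0.38 and 0.12, and without the control M894 it was 0.14, 0.01, 0.33 and 0.09. None had an adjusted p under 0.05 in any of these fits.

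The genes most like the pigment epithelium genes over the 8 libraries were sought among 13747 genes outside the 9 with at least 1 CPM on average, as those whose log2 CPM differed from the mean of the 4 with the smallest SD. Rgr, a retinal-binding opsin of the pigment epithelium and Müller glia, came first, with an SD of 0.13 against a median of 0.42 over all genes compared. It had 36.8, 66.2, 35.4 and 42.4 CPM in controls and 36.2, 33.9, 48.1 and 74.6 CPM in Rbfox2-/- mice, again highest in M909 and M894. The others were 5930403L14Rik, Car12, 2610035D17Rik, Col8a2, Thbs1, Trf (transferrin), Pon1, Slc16a8 (the lactate transporter of the pigment epithelium) and Cpxm2, with SDs of 0.13 to 0.18. M909 was the highest library for 9 of these 10 genes. They were chosen for following the mean of the 4 genes, so peaks in M909 and M894, those of Rgr included, follow from that choice. By the same measure the 5 photoreceptor and Müller genes lay at 0.38 to 0.49. Each of the 4 genes lay at 0.16 to 0.20 against the mean of the remaining pigment epithelium genes. That is another reference, so these values are not comparable with those of the 10 genes.

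Markers of the tissues around the retina were summed per library beside these results. A pigment epithelium list without the 9 genes (Best1, Slc16a8, Rrh, Rgr, Ttr, Ermn, Kcnj13 and Slc26a7, with Mfrp not analysed here) summed to 93.2 to 161 CPM in controls and 89.5 to 206 CPM in Rbfox2-/- mice, highest in M909 and M894 like the 4 genes. Ttr and Rgr were the largest parts of this sum. Ttr, Rgr, Slc16a8 and Ermn were each highest in M909 and next highest in M894, and the other genes of the list were not. Best1 was highest in M896, Kcnj13 and Slc26a7 in M898, and Rrh in M909 and then M833. Of the 8 genes of the list, 0 passed an adjusted p under 0.05 and 0 an unadjusted one by edgeR, and 0 passed with DESeq2, with a median log2 fold change of 0.01. Without M909 this median was -0.22, and without M901 and M902 it was 0.15. None of the 8 was at 0 in any library, and Best1, a defining ion channel, was at 0.83 to 1.48 CPM. Ttr, the retinol carrier transthyretin, was the most abundant of the list, with 29.98 to 57.45 CPM in controls and 31.45 to 90.58 CPM in Rbfox2-/- mice. Kcnj13, a potassium channel, had a log2 fold change of -0.56 (adjusted p = 0.455) and Slc26a7, an anion exchanger, of -0.60 (adjusted p = 0.534). Without the control M898 these were -0.36 and -0.17.

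Melanin synthesis genes followed another order of mice. Their sum over 8 genes was highest in the control M898 at 373 CPM and in M894 at 166 CPM, and was 21.4 and 34.6 CPM in M833 and M896. In Rbfox2-/- mice it was 76.4, 11, 15.8 and 37.1 CPM. M909, the highest library for Rpe65, was therefore below 2 controls and M893 for this sum, of which Dct was the largest part. Oca2 and Gpr143 were instead higher in M909 (2.18 and 0.422 CPM) than in M893 (1.69 and 0.313 CPM). The rest of the list was lower in M909 than in M893. Dct, the most abundant of them, had 9.58 to 223.6 CPM in controls and 4.78 to 45.22 in Rbfox2-/- mice (log2 fold change -2.25, adjusted p = 0.368). Pmel and Tyrp1 had log2 fold changes of -2.13 and -2.03 (adjusted p = 0.338 and 0.353). Without the control M898 the estimates of Dct, Pmel and Tyrp1 were -1.22, -1.08 and -0.95. All 8 estimates were below 0 with a median of -1.67, and 0 passed the adjusted threshold with edgeR or DESeq2. By edgeR 3 passed the unadjusted one, against 13.3% of all genes tested. Without M901 and M902 the median was -1.05.

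Ciliary epithelium markers (4 genes) summed to 25.7 to 58 CPM in controls, to 33.8 and 30.9 CPM in M893 and M909, and to 7.65 and 8.06 CPM in M901 and M902. Stroma markers of the choroid and sclera (5 genes) summed to 14.1 to 23.4 CPM in controls, to 17.5 and 18.7 in M893 and M909, and to 6.12 and 7.48 in M901 and M902. The medians of their log2 fold changes were -1.13 and -0.72, and 0 genes of either list passed the adjusted threshold with edgeR or DESeq2. By edgeR 2 and 1 passed the unadjusted one, against 13.3% of all genes tested. Without M901 and M902 the medians were -0.41 and -0.25. Slc13a4, a sulphate transporter, was the most abundant ciliary marker (log2 fold change -0.98, adjusted p = 0.587), Best2 and Msx1 had -2.02 and -1.28 (adjusted p = 0.369 and 0.347), and among stroma markers Col1a2 had -0.60, Dcn -0.85 and Lum -2.04 (adjusted p = 0.644, 0.290 and 0.391). Lum rested on the control M898, without which its estimate was -0.30, and Col1a2 turned to 0.12 without M901 and M902. The part of adhering tissue in the levels of the 4 pigment epithelium genes was not tested.

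**Figure D4:**
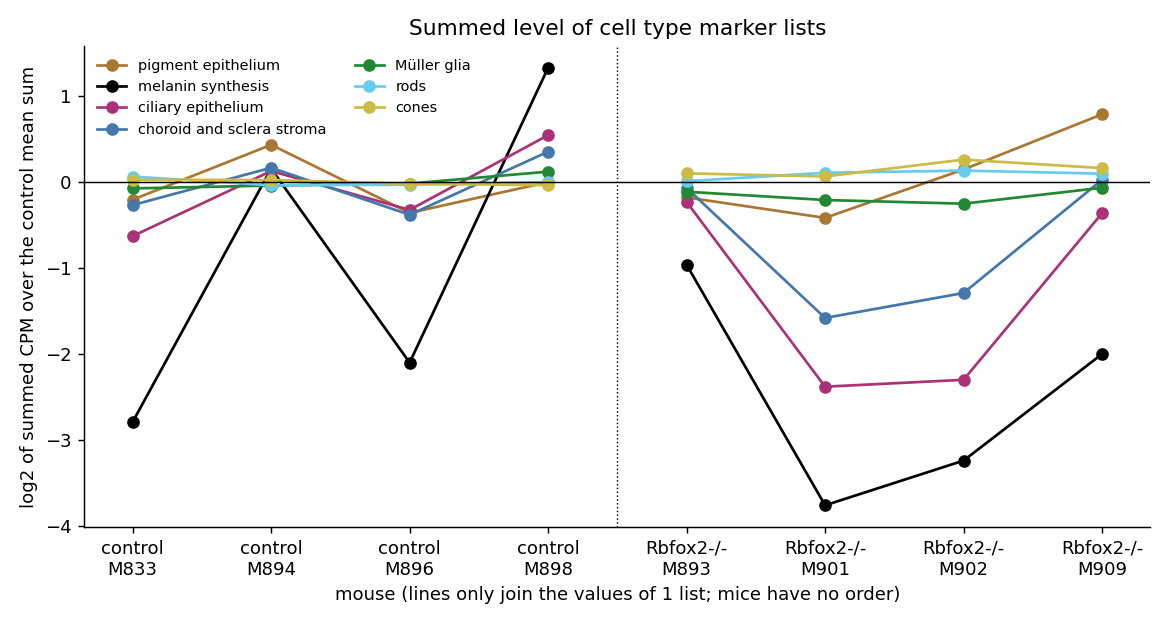
Summed CPM of 7 marker lists in each mouse, as log2 over the mean sum of the 4 controls (y axis). Pigment epithelium markers peak in M909 (0.79) and M894 (0.43), melanin genes in the control M898 (1.33), and ciliary and stroma markers are low in M901 and M902.

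Rdh8 (chr9:20818503-20826117, plus strand), which reduces all-trans retinal in photoreceptor outer segments, had 100.5, 92.6, 94.9 and 86.9 CPM in controls. It had 106.3, 105.9, 112.2 and 119.1 CPM in Rbfox2-/- mice. Every Rbfox2-/- retina lay above every control, as for 611 of all genes tested (3.64%). The mean was 93.7 ± 5.6 CPM in controls and 110.9 ± 6.2 CPM in Rbfox2-/- mice (SD, n = 4 each), a ratio of 1.18 (95% confidence interval 1.09 to 1.28). This difference of 0.24 on the log2 scale (standard error 0.05) had an adjusted p of 0.137 by edgeR's quasi-likelihood test, which does not pass the threshold. DESeq2 gave an adjusted p of 0.0043 and edgeR's likelihood ratio test 0.021 for the same estimate. Leaving out each library in turn gave log2 fold changes of 0.21 to 0.28 with adjusted p from 0.073 to 0.376, and leaving out M901 and M902 gave 0.26 with an adjusted p of 0.518. An exact two-sided permutation test gave p = 0.0286, the smallest that 4 against 4 mice allow. This value follows from the groups not overlapping and is no further support. The same test gave p from 0.257 (Abca4) to 0.886 (Stra6) for the other visual cycle genes.

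Rdh12 (chr12:79208914-79222665, plus strand), the dehydrogenase of photoreceptor inner segments, had 266.7, 268, 276.3 and 278.1 CPM in controls, within a narrow range. It had 284.4, 314.8, 305 and 247.7 CPM in Rbfox2-/- mice. M909 was the lowest of all 8 retinas and the other 3 Rbfox2-/- retinas were the highest, so that the groups overlapped through M909 alone. The estimate was 0.08 on the log2 scale, with a standard error of 0.07 and an adjusted p of 0.628. Without M909 it was 0.15, with an unadjusted p under 0.05 and an adjusted p of 0.157, and without M901 and M902 it was -0.04. In M909 the 2 dehydrogenases thus stood at opposite ends of the libraries, Rdh8 highest and Rdh12 lowest, and the ratio of Rdh8 to Rdh12 on the FPKM scale was 0.555 there against 0.361 to 0.435 in the other 7.

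Rdh8 was also set against markers of the photoreceptors, in which it is made. The 12 rod markers summed to 73122 to 78395 CPM in controls and to 75543 to 82301 CPM in Rbfox2-/- mice, and the 9 cone markers to 1275 to 1331 and 1367 to 1566 CPM. The median log2 fold changes were 0.09 and 0.13, and 0 of the 12 and 0 of the 9 passed the adjusted threshold. At an unadjusted p under 0.05 (13.3% of all genes tested), 5 rod markers were higher and 0 lower, and 3 cone markers were higher and 1 lower. DESeq2 called 4 and 2 of them, all higher, and 2.74% of all genes tested. The lower cone marker was Opn1mw, a cone opsin, at -0.23 (adjusted p = 0.353), named after its values were seen. Gngt1 and Gnat1 (subunits of the rod transducin) had log2 fold changes of 0.23 and 0.19 (adjusted p = 0.104 and 0.236), and Gngt2 and Opn1sw of cones both 0.26 (adjusted p = 0.057 and 0.192). Per 1000 CPM of the rod list, Rdh8 had 1.28, 1.27, 1.29 and 1.16 CPM in controls and 1.41, 1.31, 1.36 and 1.48 in Rbfox2-/- mice, so that the groups did not overlap on this scale either. The same held for the ratio of Rdh8 to Rbp3 on the FPKM scale, 0.0378 to 0.0425 in controls and 0.0473 to 0.0526 in Rbfox2-/- mice. The ratio of Rdh8 to Abca4, 0.230 to 0.254 and 0.251 to 0.274, overlapped. So did the ratio of Rdh8 to Rdh12, at 0.361 to 0.435 in controls and 0.388 to 0.555 in Rbfox2-/- mice. Rdh8 was already apart between the groups in CPM, and the rod sum and Rbp3 varied little between mice. The lack of overlap against the rod list and Rbp3 is therefore no further support.

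**Figure D5:**
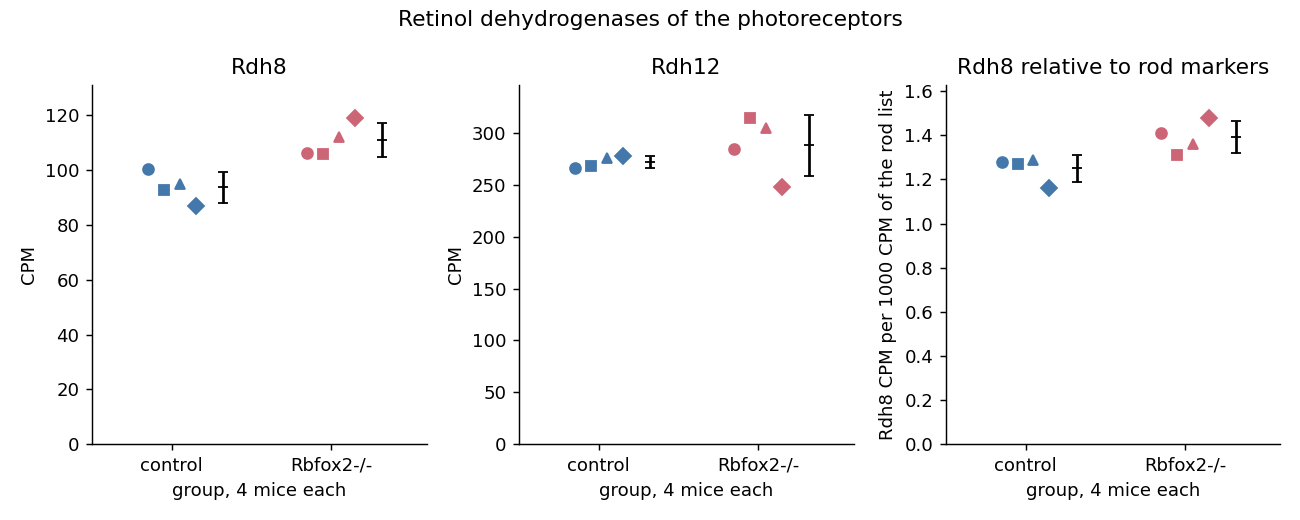
Rdh8 and Rdh12 in CPM, and Rdh8 per 1000 CPM of the rod marker list, in each of the 4 control (blue) and 4 Rbfox2-/- mice (red); black marks are the group mean and SD, and the y axes start at 0. Rdh8 lies at 86.9 to 100.5 CPM in controls and 105.9 to 119.1 CPM in Rbfox2-/- mice, whereas Rdh12 overlaps through M909 at 247.7 CPM (diamond).

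Rlbp1 (chr7:79374870-79387048, minus strand), the cis retinal carrier, had 471.3, 439.6, 448.8 and 436.5 CPM in controls. It had 460, 439.6, 458.9 and 504.6 CPM in Rbfox2-/- mice. It was highest in M909 like the pigment epithelium genes, but by 1.16 times over the lowest library, and the groups overlapped. The groups differed by 0.05 on the log2 scale, with a standard error of 0.05, an adjusted p of 0.671 and an interval of 0.963 to 1.12 times the control level. Markers of Müller glia without Rlbp1 (10 genes) summed to 6836 to 7823 CPM in controls and to 6041 to 6871 CPM in Rbfox2-/- mice. Their median log2 fold change was -0.15, and 0 of 10 passed the adjusted threshold. At the unadjusted one 4 passed, all 4 lower, against 13.3% of all genes tested. DESeq2 called 2 of them, Glul and Car14, and 2.74% of all genes tested. Without M901 and M902 the median was -0.02. Glul (glutamine synthetase), the most abundant, had a log2 fold change of -0.17 (adjusted p = 0.221), and Car14, a carbonic anhydrase, of -0.44 (adjusted p = 0.086).

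Rbp3 (chr14:33954003-33964216, plus strand), the carrier between the tissues, had 8610, 8057, 8298 and 8365 CPM in controls. It had 7575, 8143, 7762 and 8694 CPM in Rbfox2-/- mice. The highest and the lowest retina were both Rbfox2-/-, M909 and M893. The difference was -0.05 on the log2 scale, with a standard error of 0.05, an adjusted p of 0.727 and an interval of 0.887 to 1.05 times the control level.

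Abca4 (chr3:122044443-122180123, plus strand), the flippase, had 2144, 2007, 1870 and 1892 CPM in controls. It had 1957, 2111, 2068 and 2168 CPM in Rbfox2-/- mice. The control M833 lay among the higher Rbfox2-/- values and the groups overlapped. The difference was 0.07 on the log2 scale, with a standard error of 0.06, an adjusted p of 0.614 and an interval of 0.964 to 1.14 times the control level.

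A list of 44 other genes of retinoid transport, storage, oxidation and nuclear signalling was examined beside the 9, of which 41 were in the table and 40 were tested; Dhrs9, at 0 to 9 counts, was not. In this list 0 genes passed the adjusted threshold in either direction, with DESeq2 as well as with edgeR. Of the 40, 6 were higher and 1 lower at an unadjusted p under 0.05, against 13.3% of all genes tested in either direction. The median log2 fold change was 0.04, against 0.0016 over all genes tested, and 23 estimates lay above 0 and 17 below. Without M909 the median of the list was 0.005, and without M901 and M902 it was 0.06. Scarb1, a receptor that takes up carotenoids and lipoproteins and the most abundant of the list, had 141.1 to 161.3 CPM in controls and 165.5 to 173.5 CPM in Rbfox2-/- mice, or 0.15 on the log2 scale with a standard error of 0.04 and an adjusted p of 0.239. Its groups did not overlap, as for 3.64% of all genes tested in this direction. Cyp26a1, which degrades retinoic acid, had 4.33 to 6.35 CPM in controls and 5.79 to 7.39 CPM in Rbfox2-/- mice, which overlapped, with an estimate of 0.40 on the log2 scale, a standard error of 0.14 and an adjusted p of 0.276. Rrh, the peropsin of the pigment epithelium, had a log2 fold change of -0.06 (adjusted p = 0.763), and Dhrs3, a photoreceptor retinal reductase, of 0.12 (adjusted p = 0.277); these 2 were chosen after their values were seen. The list shares Rgr, Rrh and Ttr with the pigment epithelium markers.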

How the data were processed

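Retinal RNA-seq was analysed in 4 Rbfox2-/- and 4 control mice, grouped by the labels. The authors enriched mRNA by poly(A) selection, aligned reads to mm10 (GRCm38) with STAR and, from the reads with a unique position, obtained fragment counts by HTSeq, which were deposited raw. Their methods name both a RefSeq and an Ensembl annotation, and whether strand was used is not given in the sources used here. Per the labels, CASAVA 1.8.2 and edgeR were used. The authors also deposited FPKM values, used here only for levels between genes. They equal counts per gene length and library total. In total, 16 further columns of per-library values were not used, nor were the authors' fold changes and p-values. Every gene in the table has at least 5 counts in at least 4 libraries.

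Genes were filtered with filterByExpr in edgeR 4.0.16 (R 4.3.3), normalized by TMM and compared with the quasi-likelihood test without covariates, which is the test behind every adjusted p unless another is named, adjusted over all 16797 genes by the Benjamini-Hochberg method. Tested on simulated counts of 16720 genes, it called 93.5% of 200 genes changed 2-fold and 7 others. These 200 were drawn from the genes with higher mean counts, and changes under 2-fold were not simulated. The share called therefore does not give the power for small changes or for genes as variable as those of the pigment epithelium. The alternatives were DESeq2 1.42.0, the likelihood ratio test, limma-voom (limma 3.58.1), other normalizations and filters, leaving out each library, leaving out M901 and M902, and a term for Xist. The term for Xist was a mark for M901 and M902 and not an Xist level. Its group estimates therefore rest on the same mice as those without M901 and M902. Totals of 160630226 to 211283591 counts per library leave the mice as the limit on precision. The p-values rest on the spread between these mice and treat the mice as independent. Nothing in the labels says more on how the mice are related, so this is assumed. Floors cover counting error only.

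The genes and the lists were chosen with earlier results of these data known. The genes named are the 9, Rbfox2, Xist, the 10 of most similar pattern, and in each list the most abundant gene, the 2 with the lowest p and any past the adjusted threshold. 1 gene so chosen is not reported here. Gene positions are from GENCODE M21 (GRCm38) and promoter sequences from RefSeq (GRCm38.p6).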

Additional observations from a re-analysis of the deposited data

Results flagged for a closer look

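In groups of 4, a sample is listed here where its gap to the nearest other sample takes up a larger share of the group's range than Dixon's 95% critical value. Of 80 groups of CPM values examined, 3 met this, where chance alone gives about 4. Rdh5 in the Rbfox2-/- mouse M909 had 16.76 CPM against 8.23 to 9.55 CPM in the other 3. Stra6 in M909 had 19.51 CPM against 12.06 to 12.52 CPM. Lum, a stroma marker, had 0.853 CPM in the control M898 against 0.047 to 0.147 CPM in the other controls.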

How the results depend on the processing

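Of 18 alternatives, 11 moved the count of genes past the adjusted threshold by over 1.5 times from 11, namely DESeq2 (460), the likelihood ratio test (164), a term for Xist (4), leaving out M901 and M902 (1), and leaving out single libraries (5 to 35). Of the 9 genes, 1 (Rdh8) passed with DESeq2 and 1 with the likelihood ratio test, and 0 under the other 16. The change of Rbfox2 kept its direction under all 18 alternatives. The difference between the 2 kinds of gene, -0.151 on the log2 scale, turned to 0.0481 without M901 and M902 and ran from -0.371 (without M909) to 0.0103 (without the control M894) when single libraries were left out, all within the SD between mice. Directions that reversed were not past the threshold on either side. Leaving out M901 and M902 turned Rpe65 to 0.14, Lrat to 0.07, Stra6 to 0.12, Rdh12 to -0.04 and Col1a2 to 0.12 on the log2 scale. The term for Xist, which marks the same mice and is not a separate check, gave 0.14, 0.07, 0.12, -0.03 and 0.13. Leaving out single libraries gave -0.46 to 0.14 for Rpe65, -0.56 to 0.03 for Lrat, -0.15 to 0.33 for Rdh5 and -0.24 to 0.09 for Stra6. The cause was not tested. No paired analysis was possible because the groups share no replicate numbers. The 4 mice per group and not depth limit the pigment epithelium genes, which had 739 counts or more in every library.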
